A study of Homo sapiens with 4 samples.

Results

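The genes described here are the translation initiation and elongation factors, together with the poly(A)-binding proteins and release factors that work with them. They were chosen by symbol from the deposited table: all EIF1 to EIF6 symbols apart from the eIF2 kinases (EIF2AK), the argonautes formerly named EIF2C and numbered pseudogenes, plus 11 named elongation, poly(A)-binding and release factor genes. The rule matched 65 rows, and EIF4H, which was listed 2 times, was kept at its more abundant row, so 64 of 57659 listed genes were members. The binding proteins EIF4EBP1, EIF4EBP2 and EIF4EBP3 end in a P and a digit but are not described as pseudogenes in the table, so they were kept. EIF4EBP2P also matched the letters of the rule, although it is described as a pseudogene.

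The cells were 786-0, an established human renal cell carcinoma line. Control siRNA was given to the cells of 2 libraries (Control 1 and Control 2) and siRNA targeting SLFN5 to those of 2 others (SLFN5 siRNA 1 and SLFN5 siRNA 2), and the labels give no further treatment or time. SLFN5 is a Schlafen family protein that the series title ties to motility and invasiveness, and the comparison asks which transcripts differ when it is reduced. Values are equalised counts, that is, read counts that the authors adjusted to a common library size, and no label says whether separate cultures stand behind the libraries of a group, so p-values measure only the spread between libraries, which may be technical. The series' design text speaks of triplicates, and how these relate to the 4 libraries analysed here is not stated.

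Translation of most messenger RNAs starts when eIF4E binds the cap, eIF4G and the helicase eIF4A join it, and the small ribosomal subunit arrives carrying eIF1, eIF1A, eIF3, eIF5 and the complex of eIF2, GTP and initiator tRNA. eIF2B recharges eIF2 with GTP, and phosphorylation of the alpha subunit of eIF2 slows that exchange. eEF1A then brings aminoacyl-tRNA to the ribosome, eEF2 moves the ribosome along, eIF5A eases it over difficult stretches, and eRF1 and eRF3 release the finished chain. Many mRNAs for ribosomal proteins and elongation factors begin with a C followed by a run of pyrimidines, the terminal oligopyrimidine tract, through which mTORC1 and LARP1 control their translation.

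The start sites of the members show which of them carry such a tract. Of the 64 members, 50 matched a RefSeq promoter entry by symbol (build GRCh38.p14, whereas the files use hg19), with 68 listed starts. A tract was defined as C at the start base followed by at least 4 bases that are all C or T, read on the transcribed strand. It was found at a listed start of 12 of these 50 members (24%), against 5.14% of the 27305 genes with promoter entries and 4.07% of 35116 starts. The windows below give 15 bases before the start and 15 from it onwards, with the tract in capitals, because they hold both the most abundant elongation factors and members that moved in opposite directions. In EEF1B2 the tract is 16 bases long and runs past the end of the window.
EEF1A1 (chr6:73521018-73521047, minus strand): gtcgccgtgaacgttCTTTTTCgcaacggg
EEF2 (chr19:3985449-3985478, minus strand): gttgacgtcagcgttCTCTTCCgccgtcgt
EEF1B2 (chr2:206159880-206159909, plus strand): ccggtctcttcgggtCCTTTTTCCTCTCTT
EIF2S3 (chrX:24054941-24054970, plus strand): ggggtgatttccttcCTCTTTTggcaacat
EIF2A (chr3:150546772-150546801, plus strand): tcacccgagcggtttCTCTTTCCgggacaa
EIF2D (chr1:206612451-206612480, minus strand): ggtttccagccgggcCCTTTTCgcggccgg
EIF3D (chr22:36529152-36529181, minus strand): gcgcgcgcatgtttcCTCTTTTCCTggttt
EIF3F (chr11:7987322-7987351, plus strand): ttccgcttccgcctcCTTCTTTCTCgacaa
EIF3K (chr19:38619173-38619202, plus strand): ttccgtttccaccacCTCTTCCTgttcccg
EIF3M (chr11:32583816-32583845, plus strand): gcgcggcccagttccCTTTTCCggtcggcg
EIF4A2 (chr3:186783562-186783591, plus strand): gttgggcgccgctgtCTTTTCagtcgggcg
EIF4B (chr12:53006441-53006470, plus strand): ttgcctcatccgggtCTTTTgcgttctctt
For comparison, 3 members with large decreases and no tract at their listed start are shown without capitals.
EIF5A2 (chr3:170908623-170908652, minus strand): cccgccccgtctcttggaactgccgcggcc
EIF3J (chr15:44537132-44537161, plus strand): cacctccgccgtgctaactcctcgctagct
EIF2S1 (chr14:67360313-67360342, plus strand): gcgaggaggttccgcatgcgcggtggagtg

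The siRNA target checked the labels: SLFN5 stood at 420 and 353 equalised counts in the controls and at 167 and 118 after SLFN5 siRNA (log2 change -1.45, SE 0.21, limma adjusted p = 0.000524). Recovered depth was 13187517 to 31905328 counts per library, and Control 1 was 2.42 times as deep as Control 2. Of 7 renal markers, PAX8, KRT8 and KRT18 were abundant and did not pass, and VIM was abundant and lower after SLFN5 siRNA (log2 change -0.46, limma adjusted p = 0.0140). CDH6 was higher, at 6207 and 2888 in the controls and 13060 and 9823 after SLFN5 siRNA (log2 change 1.42, limma adjusted p = 0.00215), and the part of these marker changes in the results was not tested. PAX2 was low (means 57.0 and 29), and the hypoxia-induced carbonic anhydrase CA9 was near 0 (means 0.646 and 1.04). Of 9 markers of leukocytes, endothelium, hepatocytes and fibroblasts, 8 were too low to test and COL1A1 had means of 47.8 and 39.9.

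Of the 64 translation factor genes, 60 reached an equalised count of 10 in at least 2 libraries and were tested, and none passed that filter through a single group. After SLFN5 siRNA 24 members were lower and 5 higher at an adjusted p under 0.05 (limma, adjusted over all 15640 tested genes), and 31 did not pass. Thus 48.3% of the tested members were called, against 29.6% of all tested genes, with 40.0% against 16.3% lower and 8.33% against 13.3% higher. The called share rises with abundance: among the 3975 tested genes with a mean of at least 1000 equalised counts, 47.1% were called and 33.2% were lower. Of the 42 members at that level, 24 were called and 20 were lower. The members' median log2 change was -0.24, beside -0.03 over all tested genes and -0.17 over genes with a mean of at least 1000. Members whose libraries did not overlap between groups numbered 45 of 60, against 64.6% of all tested genes.

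The count and split of calls moved with the model. With no intensity trend in the variance, 4 members (EIF5A2, EIF3E, EIF3J and EIF2S3) were lower and 1 (EIF3F) higher, so the other 24 calls were lost. Calls over all genes fell from 4630 to 1182 in that fit. Limma-voom on TMM scaling gave 22 lower and 5 higher members. Quantile normalization gave 15 lower and 7 higher, and limma-voom on library totals gave 17 lower and 7 higher. The higher calls fell to 3 without Control 1, 3 without Control 2 and 2 without SLFN5 siRNA 1. Higher calls were 17.2% of the members' calls, 10% with equal library medians and 11.1% without SLFN5 siRNA 1, but 31.8% with quantile normalization and 29.2% with library totals. Over all called genes the share of higher calls was 45.1%, against 40.1% with equal medians, 41.5% without SLFN5 siRNA 1, 50% with quantile normalization and 60.6% with library totals. With library totals the median change of all tested genes was 0.08 in place of -0.03. In all, the 60 tested members summed to 328450 and 336644 equalised counts in the controls and to 284464 and 282053 after SLFN5 siRNA, and all members held 1.76% to 1.77% of the control libraries and 1.63% to 1.65% of the SLFN5 siRNA libraries. In bulk RNA a change in the makeup of the culture and a change in RNA per cell cannot be told apart.

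**Figure D1:**
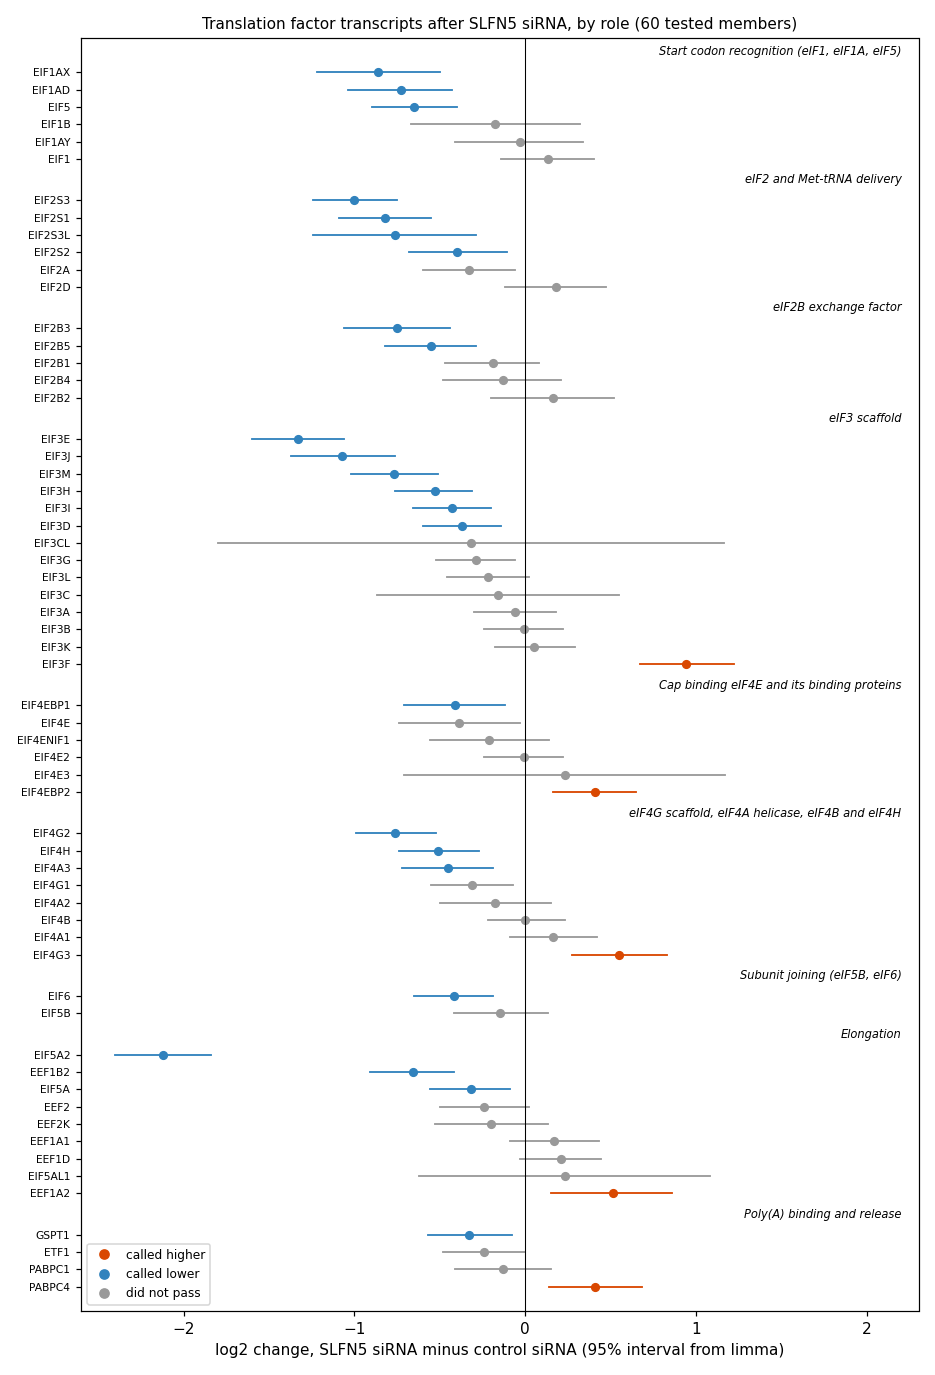
Log2 change (SLFN5 siRNA minus control siRNA, horizontal axis) of each of the 60 tested members, grouped by role, with the 95% interval from limma as a line and colour for the call. The largest decrease is that of EIF5A2 at -2.12 and the largest increase that of EIF3F at 0.94, and most points lie left of 0.

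Initiator tRNA delivery, by the eIF2 complex and the alternative factors EIF2A and EIF2D, was the role with the largest share of lower members. Of its 6 tested members, 4 were lower (66.7%) and 0 higher (median -0.58). The 4 include EIF2S3L, a copy of EIF2S3 described below, so they are not all separate subunits. Of all tested genes 16.3% were lower, and of those with a mean of at least 1000 equalised counts 33.2%. EIF2S3, the gamma subunit that binds GTP and the tRNA, stood at 5305 and 5817 equalised counts in the controls and at 2656 and 2919 after SLFN5 siRNA. It fell by 1.00 in log2 units (SE 0.11, adjusted p = 9.66e-05), to 0.501 of the control level. EIF2S1, the alpha subunit that the stress kinases phosphorylate, stood at 3080 and 3528 in the controls and at 1735 and 2003 after SLFN5 siRNA. Both SLFN5 siRNA libraries lay below both controls, and it fell by 0.82 (SE 0.12, adjusted p = 0.000575). EIF2S2, the beta subunit, stood at 3807 and 4162 in the controls and at 2667 and 3429 after SLFN5 siRNA. Its log2 change of -0.40 (SE 0.13, adjusted p = 0.0410) missed the threshold without Control 2 (adjusted p = 0.182) or SLFN5 siRNA 1 (0.252), with limma-voom on TMM scaling (0.0572) or library totals (0.141), or after quantile normalization (0.206).

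EIF2S3L, a close copy of EIF2S3 whose reads may be shared with it, had 263 and 218 equalised counts in the controls and 124 and 160 after SLFN5 siRNA. Its log2 change was -0.76 (SE 0.22, adjusted p = 0.0206), and the call was lost without Control 1 (adjusted p = 0.145) or SLFN5 siRNA 1 (0.105). The alternative initiator-tRNA factors EIF2A and EIF2D did not pass, with log2 changes of -0.33 (adjusted p = 0.0674) and 0.18 (0.366). With SLFN5 siRNA 2 left out EIF2A passed (-0.45, adjusted p = 0.0334), as it did with equal library medians (-0.37, 0.0459).

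Of the 5 subunits of eIF2B, the exchange factor that recharges eIF2, 2 were lower and 3 did not pass. The lower share was 40%, against 16.3% of all tested genes. EIF2B3, the gamma subunit, stood at 673 and 710 in the controls and at 411 and 409 after SLFN5 siRNA. The fall was 0.75 in log2 units (SE 0.14, adjusted p = 0.00232), with little spread inside either group. EIF2B5, the catalytic epsilon subunit, fell by 0.55 (SE 0.12, adjusted p = 0.00557). The regulatory subunits EIF2B1, EIF2B2 and EIF2B4 had log2 changes of -0.19, 0.16 and -0.13.

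Among the factors of start codon recognition, with EIF1AD counted for its eIF1A-like domain, 3 of 6 were lower and 0 higher. The lower share was 50%, against 16.3% of all tested genes. EIF1AX, the X-linked gene for eIF1A, stood at 648 and 839 equalised counts in the controls and at 384 and 430 after SLFN5 siRNA. The controls differed from each other more than the SLFN5 siRNA libraries did, yet the groups stood apart and the transcript fell by 0.86 (SE 0.16, adjusted p = 0.00242). EIF1AD, which carries an eIF1A-like domain, stood at 995 and 1017 against 662 and 551 and fell by 0.73 (SE 0.14, adjusted p = 0.00247). EIF5, the GTPase activator of eIF2, stood at 4839 and 4908 in the controls and at 2864 and 3359 after SLFN5 siRNA, a fall of 0.65 (SE 0.11, adjusted p = 0.00153).

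The eIF1 genes, which guard against starts at wrong codons, did not pass. EIF1 stood at 1198 and 1204 in the controls and at 1391 and 1238 after SLFN5 siRNA (log2 change 0.13, 95% interval -0.14 to 0.40, adjusted p = 0.479). Its close relative EIF1B stood at 135 and 128 against 118 and 114 (log2 change -0.18, 95% interval -0.67 to 0.32, adjusted p = 0.600). EIF1AY, the Y-linked counterpart of EIF1AX, did not pass either (log2 change -0.03, adjusted p = 0.906). Its 95% interval of -0.41 to 0.34 and that of EIF1AX, -1.22 to -0.50, did not overlap, and the difference between both changes was not tested.

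The eIF3 subunits, which hold the small ribosomal subunit and the mRNA together, split: 6 of 14 were lower, 1 was higher and 7 did not pass (median -0.30). The lower share was 42.9%, against 16.3% of all tested genes and 33.2% of those with a mean of at least 1000. EIF3E stood at 7192 and 8446 equalised counts in the controls and at 2860 and 3372 after SLFN5 siRNA. It fell by 1.33 in log2 units (SE 0.12, adjusted p = 3.42e-05), to 0.398 of the control level. EIF3J, the loosely bound subunit, stood at 1601 and 1967 in the controls and at 791 and 905 after SLFN5 siRNA. It fell by 1.07 (SE 0.14, adjusted p = 0.000246). EIF3M, of the same structural core as EIF3E, stood at 4882 and 5245 against 2736 and 3230 and fell by 0.77 (SE 0.12, adjusted p = 0.000667). In all of these both SLFN5 siRNA libraries lay well below both controls.

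EIF3F went the other way. This core subunit stood at 1023 and 895 equalised counts in the controls and at 1904 and 1776 after SLFN5 siRNA, so the higher control lay well below the lower SLFN5 siRNA library. It rose by 0.94 (SE 0.13, adjusted p = 0.000278), or 1.92-fold, and the rise ranged from 0.84 to 1.04 over the 4 fits that each left out a library. EIF3F has processed pseudogenes, and how reads shared with them were counted is not given in the sources used here.

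Smaller changes marked 3 further eIF3 subunits. EIF3H, which pairs with EIF3F in the core, fell by 0.53 (SE 0.10, adjusted p = 0.00258). EIF3I fell by 0.43 (adjusted p = 0.0105), a call that ended without Control 2 (adjusted p = 0.0970), without SLFN5 siRNA 1 (0.0582) and after quantile normalization (0.107). EIF3D, which can bind the cap of some mRNAs, had a log2 change of -0.37 (adjusted p = 0.02) which missed the threshold whichever library was left out (adjusted p from 0.0541 to 0.185), after quantile normalization (0.209) or with library totals (0.106). The scaffold subunits EIF3A and EIF3B did not pass: EIF3A stood at 7210 and 8245 in the controls and at 7221 and 7585 after SLFN5 siRNA (log2 change -0.06, 95% interval -0.30 to 0.18), and EIF3B had a log2 change of -0.01 (-0.24 to 0.22). Both changed sign in some alternatives without passing. EIF3G, EIF3K and EIF3L had log2 changes of -0.29, 0.05 and -0.22 that did not pass, although EIF3G did with equal library medians (adjusted p = 0.0388) and with the stricter filter of 50 equalised counts (0.0477).

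Levels per kb of transcript show how unequal the subunits' transcripts were. In the controls the mean equalised count per kb ran from 695 for EIF3J to 6052 for EIF3I, apart from EIF3C and EIF3CL at 16.9 and 4.08. EIF3C and EIF3CL are near-identical neighbouring copies, so reads that fit both cannot be assigned, and neither passed (log2 changes -0.16 and -0.32). EIF3E held 5068 per kb in the controls, second among the subunits after EIF3I, and 2019 after SLFN5 siRNA, below EIF3I, EIF3D, EIF3K, EIF3G, EIF3B and EIF3L. EIF3F moved from 765 to 1467 per kb, EIF3M from 1002 to 591 and EIF3H from 2053 to 1418. The lengths used were 1254 bases for EIF3F, 5051 for EIF3M and 3959 for EIF3H. Mean equalised counts after SLFN5 siRNA were 1840 for EIF3F, 2983 for EIF3M and 5614 for EIF3H. The order of subunits per kb therefore depends on the transcript length taken for each gene, and other lengths were not tried.

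**Figure D2:**
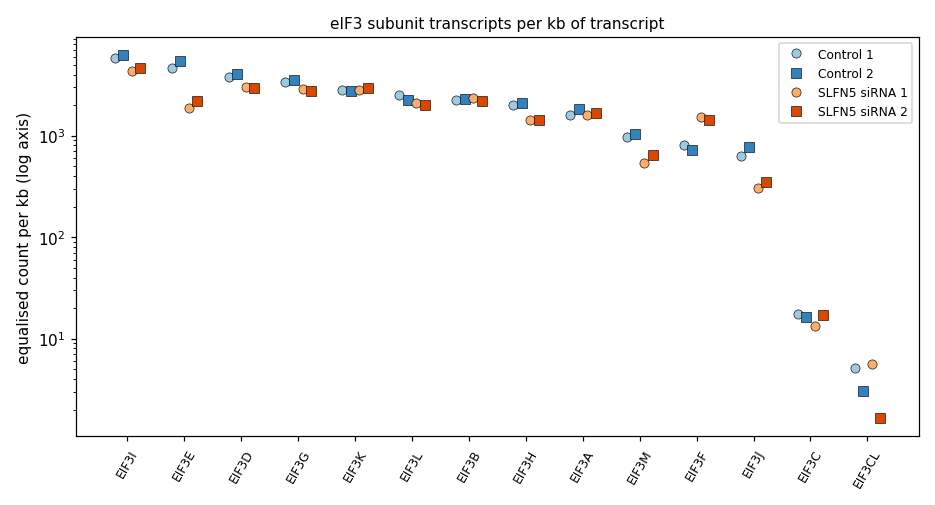
Equalised counts per kb of transcript (vertical log axis) of the 14 eIF3 genes in each of the 4 libraries, ordered by the control mean. EIF3E, EIF3M and EIF3J drop in both SLFN5 siRNA libraries and EIF3F rises in both, while EIF3C and its copy EIF3CL lie far below the other subunits in all 4 libraries.

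In cap binding 1 of 6 tested members was higher and 1 lower (median -0.11). Each is a share of 16.7%, near the 13.3% higher and 16.3% lower of all tested genes. EIF4E, the cap-binding protein, stood at 995 and 1098 equalised counts in the controls and at 678 and 940 after SLFN5 siRNA. The SLFN5 siRNA libraries differed from each other more than the groups' nearest libraries did, and the log2 change of -0.39 (SE 0.16) did not pass (adjusted p = 0.0926, and 0.0146 without SLFN5 siRNA 2, where it was -0.62). Its relatives EIF4E2 and EIF4E3 had log2 changes of -0.01 and 0.23 and did not pass. The repressors that sequester eIF4E moved apart. EIF4EBP1 stood at 1241 and 1171 in the controls and at 822 and 996 after SLFN5 siRNA (log2 change -0.41, SE 0.14, adjusted p = 0.0388), a call that ended without Control 1 (adjusted p = 0.171), Control 2 (0.0948) or SLFN5 siRNA 1 (0.182), with library totals (0.128), after quantile normalization (0.0919) and with no filter beyond a mean above 1 (0.0509). EIF4EBP2 had a log2 change of 0.41 (SE 0.11, adjusted p = 0.0168), and that call was lost without Control 1 (adjusted p = 0.0901), Control 2 (0.0814) or SLFN5 siRNA 1 (0.0695). EIF4ENIF1, the transporter that takes eIF4E into the nucleus, did not pass (log2 change -0.21).

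Of the 8 scaffold and helicase factors 3 were lower (37.5%) and 1 was higher. Among all tested genes 16.3% were lower and 13.3% higher. Lower calls made up 33.2% of the tested genes with a mean of at least 1000 equalised counts, near the share of these factors. EIF4G2, a shorter relative of eIF4G that lacks the eIF4E-binding part and serves cap-independent starts, stood at 22519 and 20650 equalised counts in the controls and at 13165 and 12390 after SLFN5 siRNA. It fell by 0.76 (SE 0.11, adjusted p = 0.000448). EIF4G3, another cap-dependent scaffold, stood at 737 and 720 in the controls and at 1105 and 1028 after SLFN5 siRNA, and rose by 0.55 (SE 0.13, adjusted p = 0.00750). EIF4G1, the main scaffold, stood at 15266 and 16794 against 12455 and 13354. Its groups did not overlap, but the log2 change of -0.31 (SE 0.11) lay just past the threshold (adjusted p = 0.0505). It passed with a pseudocount of 0.5 (adjusted p = 0.0498), with equal library medians (0.0381) and with the stricter filter (0.0456).

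The helicases EIF4A1 and EIF4A2, which unwind the start of the mRNA, did not pass. EIF4A1 stood at 14436 and 15777 in the controls and at 15674 and 18197 after SLFN5 siRNA (log2 change 0.16, adjusted p = 0.329), although it passed after quantile normalization (0.34, 0.0316). EIF4A2 stood at 3718 and 4976 against 3429 and 4229, with overlapping groups (log2 change -0.18, adjusted p = 0.417). EIF4A3, a helicase of the exon junction complex rather than of initiation, had a log2 change of -0.45 (limma adjusted p = 0.0143) that missed the threshold without Control 2 (0.111) or SLFN5 siRNA 1 (0.0839), after quantile normalization (0.0784) or with library totals (0.0594). Of the helicase cofactors, EIF4H fell by 0.51 (SE 0.11, adjusted p = 0.00464, and 0.0806 after quantile normalization), whereas EIF4B had a log2 change of 0.00 (95% interval -0.22 to 0.23).

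In subunit joining, EIF6, which keeps the large subunit from joining early, stood at 5295 and 5588 equalised counts in the controls and at 4116 and 3992 after SLFN5 siRNA. It fell by 0.42 (SE 0.11, adjusted p = 0.0104). That call was lost without Control 2 (adjusted p = 0.0991), with library totals (0.0535) and after quantile normalization (0.125). EIF5B, the GTPase that joins the subunits, did not pass (log2 change -0.15, adjusted p = 0.420).

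**Figure D3:**
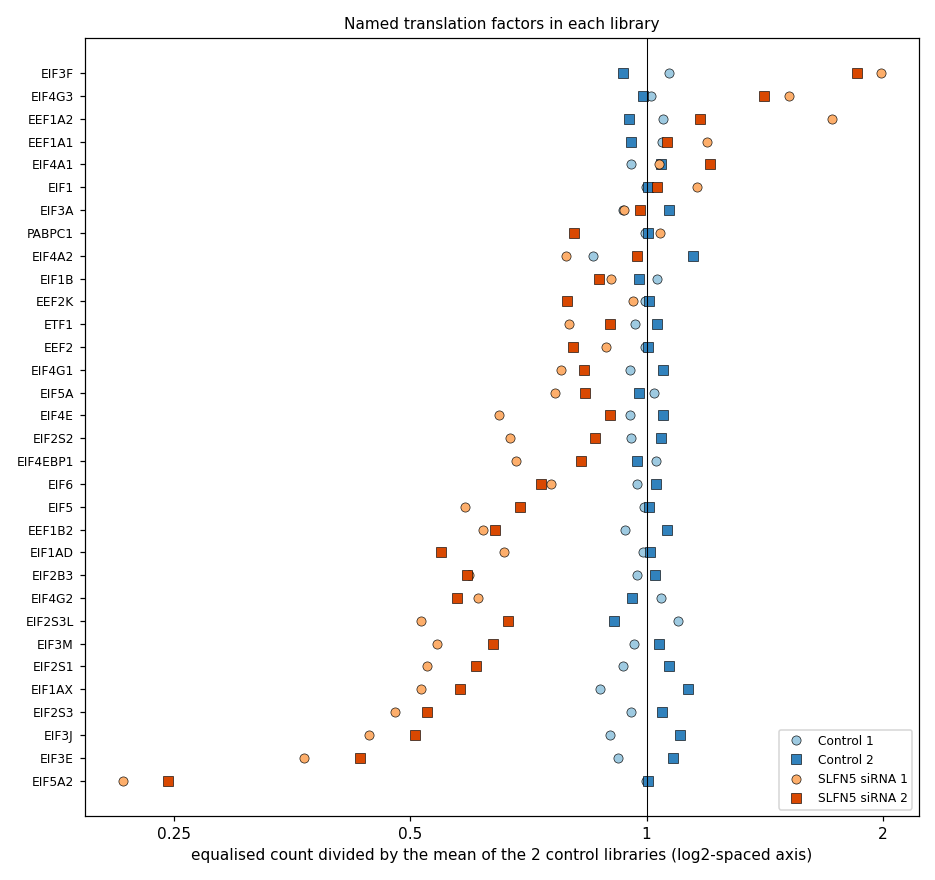
Equalised count in each library divided by the mean of both controls (horizontal axis, log2-spaced) for the members whose values are given per library, ordered by log2 change. EIF5A2 lies lowest in both SLFN5 siRNA libraries. EIF3F, EIF4G3 and EEF1A2 lie above both controls, as do EIF1 and EEF1A1, which did not pass. For PABPC1, EIF3A, EIF4A1 and EIF4A2 the groups overlap.

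The largest change of any member was in elongation. EIF5A2, the second human gene for the hypusine-containing factor eIF5A and one known as amplified in some cancers, stood at 2210 and 2223 equalised counts in the controls and at 477 and 545 after SLFN5 siRNA. The controls agreed closely, and the transcript fell by 2.12 in log2 units (SE 0.13, adjusted p = 3.02e-06), to 0.230 of the control level. The main gene, EIF5A, stood at 7867 and 7526 in the controls and at 5878 and 6422 after SLFN5 siRNA. Its log2 change of -0.32 (SE 0.11, adjusted p = 0.0388) missed the threshold without Control 1 (0.213), Control 2 (0.130) or SLFN5 siRNA 1 (0.161), after quantile normalization (0.449) or with library totals (0.192). Per kb of transcript, EIF5A2 was at 0.0671 and 0.0706 of EIF5A in the controls and at 0.0194 and 0.0203 after SLFN5 siRNA. EIF5AL1, a copy of EIF5A, had means of 27.5 and 32.5 and did not pass (log2 change 0.23).

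The tRNA-delivering factor eEF1A is the most abundant elongation factor beside eEF2. EEF1A1 stood at 36342 and 33181 equalised counts in the controls and at 41431 and 36915 after SLFN5 siRNA (log2 change 0.17, limma adjusted p = 0.311, against 0.29 and 0.0462 on library totals). EEF1A2, the form typical of muscle and neurons, stood at 1836 and 1661 in the controls and at 3007 and 2046 after SLFN5 siRNA. SLFN5 siRNA 1 lay far above the other 3 libraries, and the log2 change of 0.51 (SE 0.16, adjusted p = 0.0351) shrank to 0.23 without that library (adjusted p = 0.249). The call was also lost without Control 2 (adjusted p = 0.0726) and with equal library medians (0.0540).

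The exchange complex that recharges eEF1A was uneven. EEF1B2, its catalytic beta subunit, stood at 5028 and 5683 in the controls and at 3313 and 3431 after SLFN5 siRNA, and fell by 0.66 (SE 0.11, adjusted p = 0.00108). EEF1D, the delta subunit, did not pass (log2 change 0.21, adjusted p = 0.170), but did on library totals (0.33, 0.0270) and after quantile normalization (0.44, 0.00529). EEF1G, the gamma subunit, had only 2 recovered counts over all 4 libraries and was not tested. The sources used here do not say how the authors counted reads that fall on more than a single gene.

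EEF2, the translocase, stood at 57604 and 58180 equalised counts in the controls and at 51353 and 46698 after SLFN5 siRNA. With 18297 equalised counts per kb in the controls it was the most abundant member per length. It did not pass (log2 change -0.24, 95% interval -0.50 to 0.02, adjusted p = 0.149). EEF2K, the kinase that inhibits eEF2, stood at 626 and 633 against 605 and 498, also without passing (log2 change -0.20, adjusted p = 0.358).

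**Figure D4:**
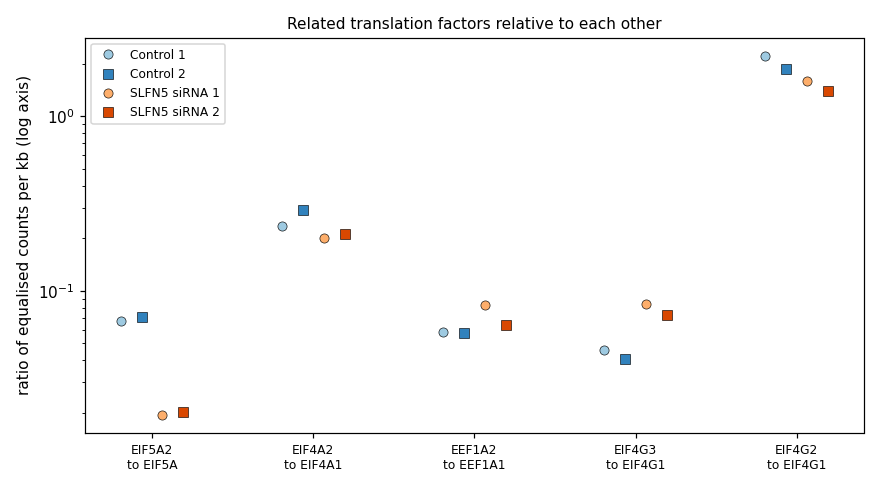
Ratio of equalised counts per kb between related members (vertical log axis) in each library. The ratio of EIF5A2 to EIF5A drops from 0.0671 and 0.0706 in the controls to 0.0194 and 0.0203, while that of EIF4G3 to EIF4G1 goes from 0.0459 and 0.0407 to 0.0844 and 0.0732.

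At the poly(A) tail, PABPC1 stood at 7089 and 7153 equalised counts in the controls and at 7401 and 5748 after SLFN5 siRNA, on both sides of the controls (log2 change -0.13, adjusted p = 0.499). PABPC4, a related poly(A)-binding protein, had a log2 change of 0.41 (SE 0.12, adjusted p = 0.0279). That call was lost without Control 1 (adjusted p = 0.299), SLFN5 siRNA 1 (0.106) or SLFN5 siRNA 2 (0.0543), and with equal library medians (0.0558). ETF1, the release factor eRF1 that reads stop codons, stood at 5248 and 5598 against 4322 and 4874 and did not pass (log2 change -0.24, adjusted p = 0.128). GSPT1, its GTPase partner eRF3, had a log2 change of -0.33 (adjusted p = 0.0459). It missed the threshold without Control 1 (0.0775), Control 2 (0.323) or SLFN5 siRNA 1 (0.181), nor with TMM scaling (0.0661), library totals (0.220), quantile normalization (0.358) or no filter beyond a mean above 1 (0.0600).

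The 4 members that were not tested were EEF1G, EIF4E1B, EIF4EBP3 and the pseudogene EIF4EBP2P, with 2, 0, 3 and 1 recovered counts over all 4 libraries.

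Members that begin with a pyrimidine tract moved in both directions. Of the 12 members shown above with a tract, 4 were lower (EIF2S3, EIF3M, EEF1B2 and EIF3D), 1 was higher (EIF3F) and 7 did not pass. Of all tested genes 16.3% were lower and 13.3% higher. The log2 changes of these 12 members ran from -1.0 for EIF2S3 to 0.94 for EIF3F, with a median of -0.21. Of the 35 tested members with a matched start and no tract, 15 were lower and 2 higher, with changes from -2.12 to 0.55 and a median of -0.24. The 14 members without a matched entry are in neither group, among them EIF3E, EIF3H, EEF1A2, EEF1D, PABPC1 and PABPC4. The medians therefore do not cover the whole family. EIF2S3 and EIF3F, which moved in opposite directions, thus both start with a tract, of 7 and 10 bases.

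**Figure D5:**
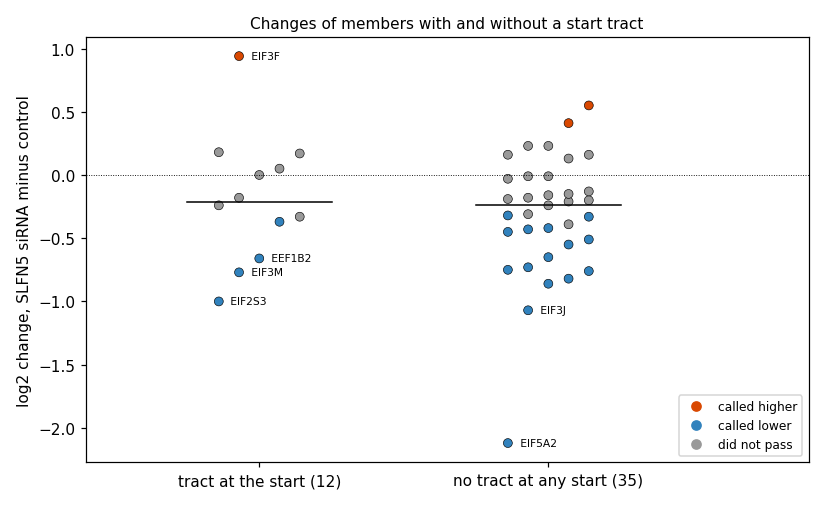
Log2 change (vertical axis) of the 12 tested members with a pyrimidine tract at a listed start and of the 35 with listed starts but no tract. The median of each group is a line, colour shows the call, and members without a matched entry are not drawn. The medians of -0.21 and -0.24 lie close together, and the group with a tract spans -1.0 to 0.94.

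Genes that regulate these factors or act downstream of them were read from lists. A list of 12 held genes acting on eIF2 phosphorylation and the downstream factors ATF4, DDIT3 and ATF5. Of these 12, 1 was higher and 2 lower, so that 25% were called, against 29.6% of all tested genes. The inducible phosphatase subunit PPP1R15A rose by 0.84 (565 and 672 equalised counts in the controls, 1030 and 1178 after SLFN5 siRNA, adjusted p = 0.00130). Its constitutive counterpart PPP1R15B fell by 1.11 (2362 and 2595 against 1126 and 1172, adjusted p = 7.03e-05). EIF2AK3, the kinase PERK, had a log2 change of -0.48 (limma adjusted p = 0.0125) that missed the threshold without Control 1 (0.0942). The translationally induced factor ATF4 had a log2 change of -0.04 and did not pass.

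Of 17 genes of mTORC1 and of the kinases acting on cap binding, 3 were higher and 2 lower, a called share of 29.4% that is near the 29.6% of all tested genes. MKNK2, a kinase that phosphorylates eIF4E, rose by 1.58 (1544 and 1611 equalised counts in the controls, 4571 and 4883 after SLFN5 siRNA, adjusted p = 6.41e-06). DDIT4, an inhibitor of mTORC1, rose by 1.62 (1779 and 1120 against 4642 and 4062, adjusted p = 9.47e-05). RHEB, the GTPase that activates mTORC1, fell by 0.59 (adjusted p = 0.00294). TSC1, part of the complex that inhibits RHEB, had a log2 change of 0.38 (limma adjusted p = 0.0292) that was lost without Control 1 (0.115), Control 2 (0.153) or SLFN5 siRNA 2 (0.108). RPS6KB1, the S6 kinase, had a log2 change of -0.45 (limma adjusted p = 0.0264) that was lost without Control 1 (0.0809), Control 2 (0.143) or SLFN5 siRNA 1 (0.116), with library totals (0.0955) and after quantile normalization (0.0560).

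Of 26 accessory factors listed, 24 were found under their symbols and 23 tested, with 7 lower and 3 higher (43.5% called, against 29.6% of all tested genes). DENR, which works in reinitiation and recycling, rose by 1.2 (742 and 800 equalised counts in the controls, 1508 and 2094 after SLFN5 siRNA, adjusted p = 0.000238). DPH3, needed for the diphthamide on eEF2, rose by 1.07 (adjusted p = 0.00145). PAIP2B, an inhibitor of poly(A)-binding protein, stood at 5.90 and 4.53 against 30.6 and 15.5 and passed the filter on low values only through the SLFN5 siRNA libraries, so its place among the 3 higher genes is no support for a change. The ribosome recycling factor ABCE1 fell by 0.84 (2290 and 2413 against 1205 and 1430, adjusted p = 0.000533). The helicase DHX9 fell by 0.70 (adjusted p = 0.000648). DOHH, which completes the hypusine on eIF5A, fell by 0.69 (982 and 1035 against 588 and 660, adjusted p = 0.00263), while DHPS, the enzyme of the step before, did not pass (log2 change -0.17).

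Mitochondrial translation factors served as a separate group of similar function. Of 12 tested, 4 were lower and 0 higher. The lower share was 33.3%, against 16.3% of all tested genes, and the higher share was 0%, against 13.3%. In either direction 33.3% were called, against 29.6% of all tested genes, and the median log2 change was -0.15 beside -0.03. GFM1, the mitochondrial counterpart of eEF2, fell by 1.03 (2585 and 2997 equalised counts in the controls, 1342 and 1374 after SLFN5 siRNA, adjusted p = 0.000114). MRRF, the ribosome recycling factor, fell by 0.60 (adjusted p = 0.00411). TSFM, the exchange factor of the elongation factor Tu, had a log2 change of -0.53 (limma adjusted p = 0.0177) that missed the threshold without Control 1 (0.1), Control 2 (0.0936) or with library totals (0.0600). Of the 17 genes named from these lists, PPP1R15B, MKNK2, DDIT4 and GFM1 kept their call without the intensity trend, and the other 13 did not.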

How the data were processed

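RNA-seq was done by the authors on poly(A)-selected total RNA (single-end reads), per the labels. Each gene's deposited value is a signal; edgeR and the build hg19 are named in the submitters' processing notes, and no source used here gives the aligner, counter or annotation. The values have the form of counts adjusted within each group to a common library size. Inverting that adjustment (dispersion 0.0162) gave whole counts that returned 100% of 230636 values (relative tolerance 1e-06). Rows with values under 1e-06 in both libraries of a group were set to 0 and counted as returned, so these could not fail. The main fit did not use the recovered counts, which served for depth, limma-voom, the simulation and the check of counting error. Members and gene lists were chosen with earlier results of these data known.

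Genes that reached 10 in 2 or more libraries were kept. On log2(value + 1), limma 3.58.1 (R 4.3.3) fitted the group with an intensity trend (2 residual and 9.60 prior degrees of freedom, Benjamini-Hochberg over 15640 genes, threshold 0.05). Fold changes on this scale understate the change of low genes. Intervals are 95%. In counts simulated from the control means and library depths (15323 genes), 88.0% of 2-fold and 20.0% of 1.5-fold increases were called. Of decreases, 70.0% of those to 0.5 and 16.0% of those to 0.67 were called. Far fewer genes were changed there than were called in the data, so these shares are not the sensitivity of the main fit. A member that did not pass is not shown to be unchanged. Per-library values were given for called members changed by at least 0.5 (at most 12 per direction) and for core factors. From the other lists the 3 largest called changes per direction were named. Lengths are the median of the principal transcripts in GENCODE v29. EIF2A and other genes named for passing only under an alternative were chosen after their values were seen. Libraries of a group differed by more than counting error (chi-square divided by its degrees of freedom 18.0 and 17.8), so no library was counted as a repeat of another; whether they are separate cultures is not shown by this.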

Additional observations from a re-analysis of the deposited data

How the results depend on the processing

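The 60 tested members and 17 other named genes were refitted under 14 alternatives, all planned. Of 1070 gene values, 919 kept their direction and side of the threshold, 102 fell short of it, 20 newly passed and 29 changed sign. No called member changed sign. Of the 29 called members, 5 (EIF3F, EIF5A2, EIF3E, EIF3J and EIF2S3) kept their call in all 14 alternatives, and 15 of the 24 lower and 2 of the 5 higher calls held in all 4 fits leaving out a library. The causes of these shifts were not tested.

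Without the intensity trend, 1 member was higher, 4 were lower and 1182 genes were called in all, against 5, 24 and 4630. Equal library medians gave 3 higher members and quantile normalization 15 lower ones. Leaving out each library gave 2 to 4 higher members, 16 to 25 lower members and 2941 to 3951 called genes.

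Of the members that changed sign, EIF3A was at 0.15 and 0.07, EIF3B at 0.22 and 0.11, EIF4E2 at 0.16 and 0.11 and EIF1AY at 0.03 and 0.09 with quantile normalization and library totals. PABPC1 was at 0.10 with quantile normalization, EIF2B4 at 0.02 with library totals and EIF4B at -0.04 with equal medians. With TMM scaling EIF1AY was at 0.01, EIF3B at 0.02 and EIF4E2 at 0.02. Over the fits leaving out a library, log2 changes ran from -0.16 to 0.04 for EIF3A, -0.06 to 0.03 for EIF3B, -0.33 to 0.01 for EIF3C and -0.66 to 0.49 for EIF3CL. They ran from -0.39 to 0.03 for EIF4A2, -0.31 to 0.06 for PABPC1, -0.30 to 0.23 for EIF1AY and -0.30 to 0.03 for EIF2B4. For EIF4B, EIF4E2 and EIF4E3 the ranges were -0.02 to 0.02, -0.03 to 0.01 and -0.03 to 0.49.

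With the replicate block (library numbers from the sample descriptions, whose meaning no label gives), 6 members were higher, 31 lower and 6703 genes called. It newly called EIF4G1 (adjusted p = 0.00161), EIF4E (0.00533), EIF3G (0.00547), EIF2A (0.00697), ETF1 (0.0157), EEF2 (0.02), EIF3L (0.0255) and EEF1D (0.0347), and ended no member's call. Deviations of same-numbered libraries correlated at 0.19 over 15640 genes, with 2 pairs.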
